A study of Mus musculus with 2 samples.

Results

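The miRNA genes of 4 imprinted loci, Mir335 in Mest, Mir483 in Igf2, Mir675 in H19, and Mir296 and Mir298 beside Gnas, were followed in the newborn mouse heart. They were chosen by name and locus, not by level, and make up 5 of the 1973 miRNA gene rows of the count tables. The series held 1 group of 2 libraries, each from the single heart of a B6NCrl pup on postnatal day 0. Replicate 1 was pup 2 and replicate 2 was pup 3, both listed under pregnant 1, and their sex was not collected. The labels give both libraries the same donor identifier but different pup numbers and biological replicate numbers. That they are 2 animals rests on these numbers. Each SD over the pups and each difference between the hearts depends on their being 2 animals. The hearts carried no treatment or allele named in the labels, and there was no second condition to compare.

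Imprinted genes are expressed mainly from the copy inherited from 1 parent, and many of them act on fetal growth. Mest and Igf2 are expressed from the paternal copy and H19 from the maternal copy. The Gnas locus gives several transcripts of either parental origin, among them the antisense RNA Nespas. A miRNA is cut from a hairpin precursor and represses messenger RNAs that pair with its seed, bases 2 to 8 from the 5′ end. The counts do not tell the parental copies apart, nor the arms of a precursor, and host transcripts were not measured.

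On GRCm38, Mir335 occupies bases 30741299 to 30741396 of chromosome 6 within a Mest intron, and both are read from the plus strand. Mir483 occupies bases 142654924 to 142654996 of chromosome 7 within an Igf2 intron, both on the minus strand, and the annotated gene Gm49394 overlaps it too. Mir675 lies on chromosome 7, 142577064 to 142577147, minus strand, inside an exon of H19, so its precursor is part of the H19 RNA itself. The 2 genes of chromosome 7 stand 77.8 kb apart. Mir298 (chromosome 2, 174267504 to 174267585) and Mir296 (174267047 to 174267125) are both on the minus strand with 378 bases between them. No other annotated gene overlaps either of them. They lie 13.7 kb and 14.1 kb beyond the annotated 3′ end of Nespas, on its strand, and Mir298 stands 16.7 kb from the annotated start of Gnas.

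The mature sequences are shown because counts were made per gene, and reads of either arm of a precursor enter the same value. All 10 were read from RefSeq on GRCm38.p6, and capitals mark the seed.

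mmu-miR-335-5p: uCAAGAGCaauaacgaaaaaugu
mmu-miR-335-3p: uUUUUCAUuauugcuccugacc
mmu-miR-483-5p: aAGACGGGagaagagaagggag
mmu-miR-483-3p: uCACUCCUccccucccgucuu
mmu-miR-675-5p: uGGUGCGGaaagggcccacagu
mmu-miR-675-3p: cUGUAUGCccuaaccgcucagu
mmu-miR-296-5p: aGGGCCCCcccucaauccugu
mmu-miR-296-3p: gAGGGUUGgguggaggcucucc
mmu-miR-298-5p: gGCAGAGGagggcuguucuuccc
mmu-miR-298-3p: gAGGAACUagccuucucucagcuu

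The 10 seeds all differ from one another, and none is the seed of a mature miRNA of another gene among the 1679 names in the RefSeq table. Of these names 27.9% share their seed with at least 1 other. The 5 genes thus do not form a seed family, and the miRNAs of the neighbours Mir296 and Mir298 differ in seed as well.

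The precursors of the 3 loci with the most counts per locus are shown with both mature arms in capitals.

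Mir335 precursor: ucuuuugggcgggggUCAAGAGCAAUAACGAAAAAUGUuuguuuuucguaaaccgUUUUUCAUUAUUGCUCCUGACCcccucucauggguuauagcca
Mir298 precursor: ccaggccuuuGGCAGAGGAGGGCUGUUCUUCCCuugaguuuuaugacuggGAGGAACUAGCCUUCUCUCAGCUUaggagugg
Mir296 precursor: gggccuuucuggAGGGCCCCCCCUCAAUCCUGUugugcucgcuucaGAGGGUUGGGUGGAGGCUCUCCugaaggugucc
Mir483 precursor: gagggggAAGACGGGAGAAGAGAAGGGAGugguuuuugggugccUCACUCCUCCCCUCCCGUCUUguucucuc

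The Mir335 precursor is 98 nt long with a GC content of 42.9%, below the median of 51.7% over 1005 RefSeq hairpins. The other precursors lie above that median, at 53.7% for Mir298, 58.9% for Mir483, 63.1% for Mir675 and 63.3% for Mir296. No stretch of 20 nt of any of the 5 precursors occurred in another annotated miRNA gene on either strand. The whole mature sequences were found in no transcript of another gene, except those of Mir675 in H19 itself. Reads aligned to several places, 36.6% of all reads in replicate 1 and 37.1% in replicate 2, were assigned to no gene. Matches elsewhere in the genome were not searched.

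Total sense counts were 2323450 in replicate 1 and 3487183 in replicate 2, from tables of 5052766 and 7441784 reads. Levels are in CPM, each count scaled to a total of 1000000 sense counts. A gene was called detected at 2 CPM or more in both hearts, which 327 of the 1973 genes reached. Of the 5 heart muscle markers, the myosin-hosted Mir208b stood at 69447 CPM in replicate 1 and 70139 CPM in replicate 2, Mir208a at 15926 and 13951 CPM, and Mir499 at 4737 and 4844 CPM. Mir1a-1 (7.32 and 5.45 CPM) and Mir133a-1 (8.61 and 7.17 CPM) were low, and both share 20 nt or more with other loci and are uncertain. The list summed to 90126 and 88947 CPM, and 1 of its members, Mir208a, was called lower in replicate 2 by the test described further on. The neuronal markers Mir124a-1, Mir124a-2, Mir124a-3 and Mir9-2 had 0 counts in both, though each shares 20 nt or more with another locus. The libraries stood apart in the epithelial markers Mir200c, Mir200b, Mir141 and Mir429, all 4 higher in replicate 2, with summed levels of 190 CPM in replicate 1 and 526 CPM in replicate 2. The red cell markers Mir451a and Mir144 summed to 627 and 542 CPM, and Mir144 was called lower in replicate 2, at 189 and 132 CPM. The myeloid marker Mir223 stood at 334 and 323 CPM and the liver marker Mir122 at 53.8 and 47.3 CPM, and neither was called. The part of such cells in the differences given for the imprinted loci was not tested. The smooth muscle markers Mir143 and Mir145a summed to 98349 and 102229 CPM. Nearly all of this came from Mir143, at 96664 and 100489 CPM, while Mir145a stood at 1685 and 1740 CPM. The endothelial marker Mir126a, which shares sequence with Mir126b, stood at 108110 and 105610 CPM. Of these, Mir143 was called higher and Mir126a lower in replicate 2.

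All 5 genes were detected in both hearts. Together they held 7.81% of sense counts in replicate 1 and 8.36% in replicate 2, a mean of 8.08% ± 0.390 (SD, n = 2). Mir335 held 93.8% ± 0.452 of the members' counts, so the summed share is close to that of Mir335 alone. The other 4 genes held 0.508% in replicate 1 and 0.490% in replicate 2.

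**Figure D1:**
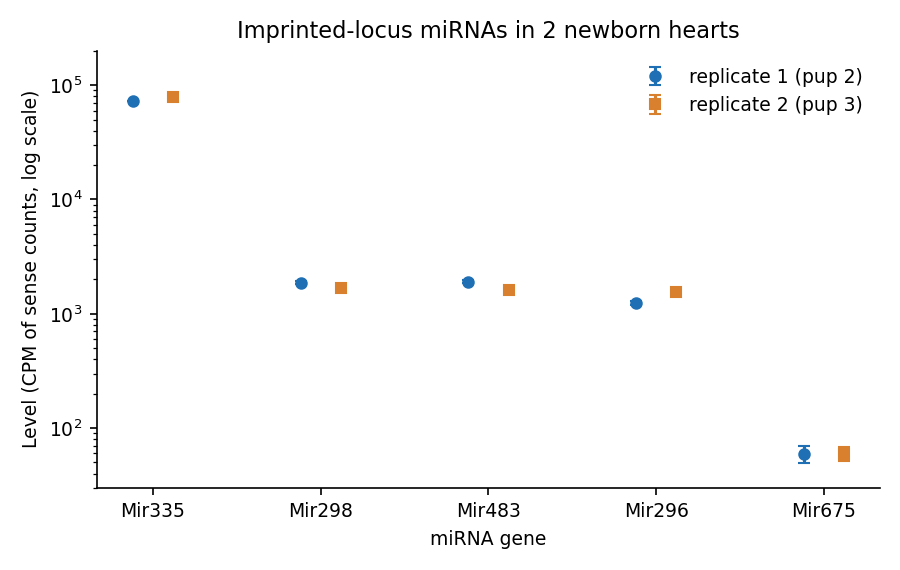
Level of each miRNA gene in CPM of sense counts (log scale) for replicate 1 (circles) and replicate 2 (squares), with exact 95% intervals of the count. Mir335 stands far above the rest, Mir298, Mir483 and Mir296 lie together between 1249 and 1908 CPM, and Mir675 lies at about 59 CPM.

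Mir335 is cut from the intron of Mest, whose product resembles hydrolase enzymes. Its miRNA is best known as a suppressor of metastasis in human breast cancer cells. In the newborn heart it had 169582 counts in replicate 1 and 274362 in replicate 2, or 72987 and 78677 CPM. It ranked 3 of 1973 genes in both hearts. The exact Clopper-Pearson 95% intervals of its share ran from 7.27% to 7.33% for replicate 1 and from 7.84% to 7.90% for replicate 2. Such intervals cover the counting error of reads within a library only. They treat each read as separate, although no molecular identifiers tie reads to single molecules.

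Mir335 stood beside abundant miRNAs of muscle. Mir143, the smooth muscle miRNA next above it, exceeded it 1.30-fold ± 0.0333 (SD, n = 2). Mir208b, the miRNA of the beta-myosin heavy chain gene next below it, was exceeded by it 1.05-fold in replicate 1 and 1.12-fold in replicate 2. The order of these 3 genes was thus the same in both hearts, with the narrowest gap between Mir335 and Mir208b. By distance in log2(CPM + 1) over the 2 libraries, the 2 genes nearest to Mir335 were Mir208b (0.181) and Mir99a (0.287). Ranks compare counts, and how many reads a molecule of each miRNA yields was not measured. A miRNA with near-identical loci can rank too low, since its reads are assigned to no gene.

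**Figure D2:**
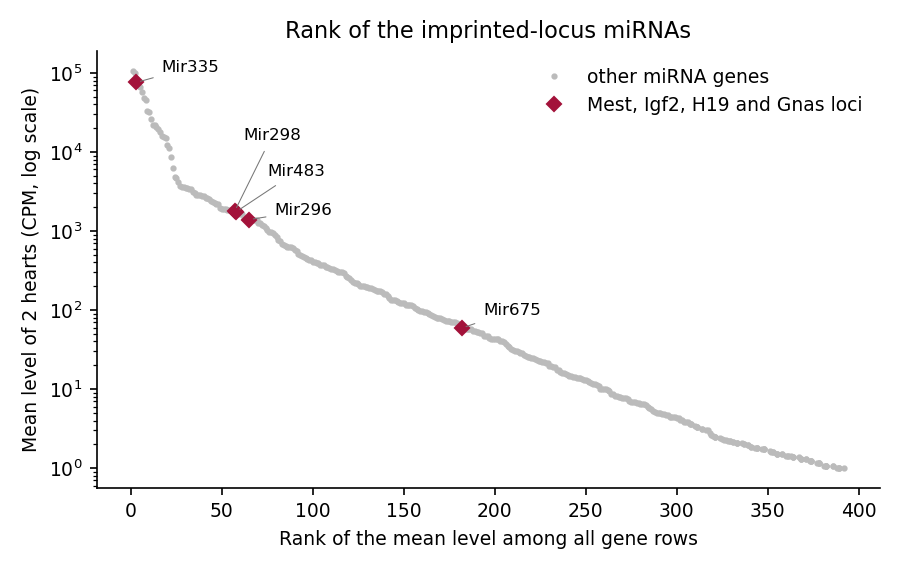
Mean level over the 2 hearts (CPM, log scale) against rank for all miRNA genes averaging 1 CPM or above (grey), with the 5 imprinted-locus genes as diamonds. Mir335 sits at rank 3, Mir298, Mir483 and Mir296 at ranks 57, 58 and 65, and Mir675 at rank 182.

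At the Igf2 and H19 loci, which share control elements and encode a fetal growth factor and a long noncoding RNA, the miRNA of Igf2 was counted far more often. Mir483 had 4432 counts in replicate 1 and 5633 in replicate 2, or 1908 and 1615 CPM. Mir675, described in mouse as a product of H19 that restrains placental growth, had 137 and 208 counts, or 59.0 and 59.6 CPM. Mir483 took 97.0% of the counts of this pair in replicate 1 (95% interval 96.5% to 97.5%) and 96.4% in replicate 2 (95.9% to 96.9%). The log2 ratio of Mir483 over Mir675 was 4.86 ± 0.181 (SD, n = 2), a 29.1-fold difference. The pups differed far less from each other than the genes did.

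Mir675 still stood well above what a count of 0 would allow, which is 3 counts, or 1.29 CPM in replicate 1 and 0.860 CPM in replicate 2. Its 95% intervals were 49.5 to 69.7 CPM and 51.8 to 68.3 CPM. The genes nearest to it in level were Mir222 (distance 0.0816) and Mir450-2 (0.0973), of which Mir450-2 shares sequence with Mir450-1 and is uncertain. It ranked 180 and 184 in the 2 hearts.

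At the Gnas locus, Mir298 had 4323 counts in replicate 1 and 5889 in replicate 2, or 1861 and 1689 CPM. Its neighbour Mir296, whose miRNA has been linked to blood vessel growth in human endothelial cells, had 2902 and 5358 counts, or 1249 and 1536 CPM. The pair together took nearly the same share in both hearts, 0.311% in replicate 1 and 0.323% in replicate 2. Within the pair the balance differed. Mir296 made up 40.2% of the pair's counts in replicate 1 (95% interval 39.0% to 41.3%) and 47.6% in replicate 2 (46.7% to 48.6%). This share is free of library scaling. Mir298 was the higher of the 2 in both hearts, with a mean log2 ratio of Mir296 over Mir298 of -0.36 ± 0.310 (SD, n = 2).

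The order of mean levels was Mir335 at 75832 ± 4024 CPM, Mir298 at 1775 ± 122, Mir483 at 1761 ± 207, Mir296 at 1393 ± 203 and Mir675 at 59.3 ± 0.483 (SD, n = 2 each). For Mir675 this SD is smaller than its counting error. Mir298 and Mir483 did not differ beyond their spread, and their order was reversed between the hearts. Mir483 made up 50.6% of the counts of these 2 genes in replicate 1 and 48.9% in replicate 2. Mir483 and Mir296 were closer in replicate 2, where Mir483 made up 51.3% of their counts (50.3% to 52.2%), than in replicate 1, where it made up 60.4% (59.3% to 61.6%). Mir335 exceeded Mir298 by a log2 ratio of 5.42 ± 0.175, Mir483 by 5.43 ± 0.246 and Mir296 by 5.77 ± 0.135. No permutation test was made of these ratios, since 2 pups cannot give p below 0.5.

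The genes nearest in level to the middle 3 were, besides Mir298 and Mir483 for each other (distance 0.0734), Mir148a for Mir483 (0.176), Mir130b for Mir298 (0.126), and Mir101b (0.113), which shares sequence with Mir101a, and Mir18 (0.138) for Mir296. Likeness here means level in 2 libraries of 1 tissue, with no change of condition behind it.

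Between the 2 hearts, 4 of the 5 genes differed beyond counting error, 2 in each direction. The exact two-sided binomial test of each gene's counts, given library totals scaled by TMM and with Benjamini-Hochberg adjustment over all 615 genes with a count, compares these libraries and not conditions. It called 14% of all tested genes, 8.94% as higher and 5.04% as lower in replicate 2. Calls depend on counts: among the 193 genes that averaged at least 50 CPM, which include all 5, it called 43 higher and 30 lower.

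Mir335 was 1.08-fold higher in replicate 2 (log2 ratio 0.11, counting SE 0.00446, adjusted p = 9.47e-93, exact binomial test). Mir296 was 1.23-fold higher (log2 ratio 0.30, counting SE 0.0333, adjusted p = 2.51e-16, exact binomial test). Mir483 was lower in replicate 2, at 0.847 of its level in replicate 1 (log2 ratio -0.24, adjusted p = 3.07e-17, exact binomial test). Mir298 was lower too, at 0.908 (log2 ratio -0.14, adjusted p = 9.18e-07, exact binomial test). These p-values cover counting error only, with 1 library on each side. Over 298 genes the libraries differed by a chi-square of 33.8 per degree of freedom, far beyond counting error. The p-values therefore cannot show that a gene differed more than libraries vary in general. Mir675 was not called. It had a log2 ratio of 0.02 with a 95% interval of -0.30 to 0.34, so its counts do not exclude a difference within that range.

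These differences were of the size seen in other miRNA genes. The median absolute log2 ratio of the 193 genes was 0.11. A larger one than that of Mir335 was found in 97 of them, than that of Mir298 in 79, than that of Mir483 in 44 and than that of Mir296 in 24. None of the 5 genes reached 1.5-fold. The coefficient of variation over the pups was 5.31% for Mir335, 6.85% for Mir298, 11.7% for Mir483, 14.6% for Mir296 and 0.814% for Mir675, beside a median of 5.58% over the 193 genes. The value of Mir675 is no measure of stability, since its log2 ratio of 0.02 is far below its counting SE of 0.159.

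**Figure D3:**
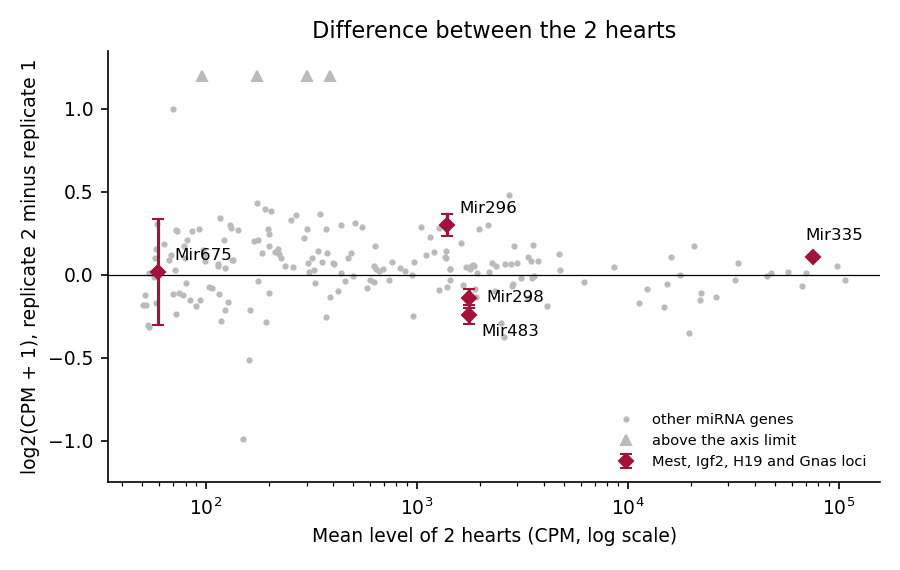
Difference between the hearts, log2(CPM + 1) in replicate 2 minus replicate 1, against mean level (CPM, log scale) for the 193 genes that averaged at least 50 CPM. Bars on the 5 imprinted-locus genes are exact 95% intervals for counting error; Mir296 and Mir335 lie above 0, Mir298 and Mir483 below, Mir675 spans 0, and 4 other genes lie beyond the upper axis limit.

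Among miRNAs of imprinted regions, Mir335 alone had more counts than the listed genes of the Dlk1-Dio3 region together. The Dlk1-Dio3 region of chromosome 12, from which 51 listed genes had a row, held 1.82% of sense counts in replicate 1 and 2.11% in replicate 2, led by Mir411, Mir127 and Mir487b at 3563, 2889 and 2175 CPM. Mir411 and Mir487b share 20 nt with 1 other gene each and are uncertain. Mir335 exceeded that sum 4.02-fold and 3.74-fold. The 4 other members together stood below it, and the Dlk1-Dio3 sum exceeded them 3.94-fold ± 0.510 (SD, n = 2).

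The 59 genes named Mir297, Mir466, Mir467 or Mir669 inside Sfmbt2, another imprinted gene, held 0.126% and 0.133%. They were led by Mir467e at 400 CPM, Mir467d at 375 CPM and Mir467c at 259 CPM, which share 20 nt or more with other loci and are uncertain. Other miRNA rows inside Sfmbt2 were not listed. Reads of near-identical copies are assigned to no gene, so the Sfmbt2 sum can be too low. Mir184, near Rasgrf1, had 45 and 67 counts, or 19.4 and 19.2 CPM. Of all counts on these lists and the 5 members, Mir335 took 74.5% ± 0.449 (SD, n = 2), a share that can be too high for the same reason. The test between the hearts called 16 of 45 tested Dlk1-Dio3 genes higher in replicate 2 and 1 lower, or 35.6% and 2.22%, beside 8.94% and 5.04% of all 615 genes and 22.3% and 15.5% of the 193 genes that averaged at least 50 CPM. It called 0 of 12 in Sfmbt2, where 0 had an unadjusted p under 0.05 in the exact test, and Mir184 was not called. The median log2 ratio was 0.22 over the 42 Dlk1-Dio3 genes that averaged 2 CPM or above, 0.10 over 9 in Sfmbt2, 0.02 over the 5 members and 0.05 over 338 genes of all kinds.

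**Figure D4:**
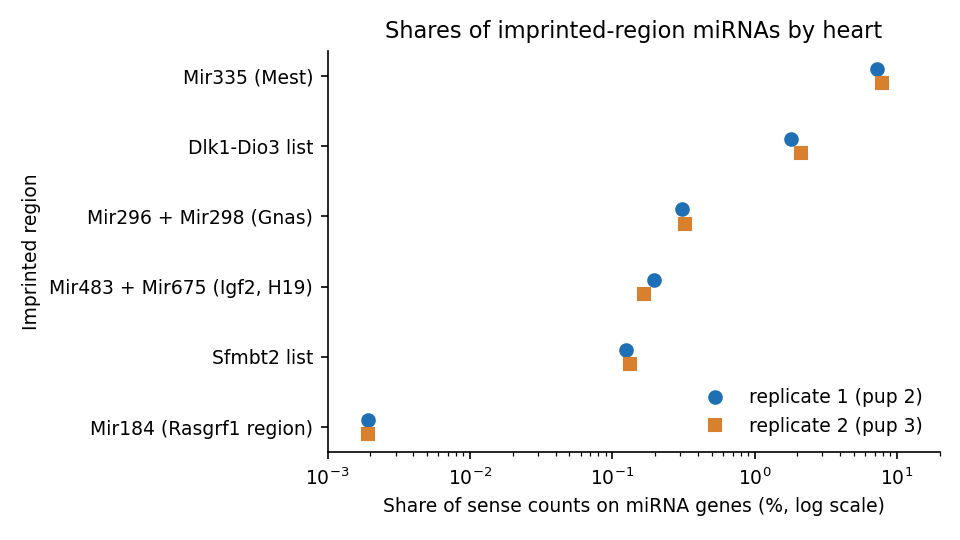
Share of sense counts (%, log scale) held by imprinted-region miRNAs in replicate 1 (circles) and replicate 2 (squares). Mir335 lies at 7.30% and 7.87%, the Dlk1-Dio3 list near 2%, the Gnas, Igf2 with H19 and Sfmbt2 groups between 0.126% and 0.323%, and Mir184 near 0.002%.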

How the data were processed

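Small RNA libraries with inserts under 30 nt were made from total RNA of 2 hearts. Per the labels, reads were placed on mm10 and, per the deposited text files, annotated with GENCODE M4. The deposited values are raw counts per miRNA gene, whole numbers given for the 2 strands together and for each alone. The aligner, counter, trimming and settings for repeated alignments are not given in the sources used here. The 4 summary rows stayed out of library sizes. They held 11.5% of reads that did not map, 36.6% with several alignments and 5.93% on no sense feature in replicate 1, and 10.5%, 37.1% and 5.62% in replicate 2.

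The sense column, taken as the strand column with the larger total on genes, was used, scaled to 1000000 (CPM). Symbols and positions came from GENCODE M21, which is on the same assembly as mm10 (1894 of 1973 identifiers matched). RefSeq GRCm38.p6 held all 5 precursors, with the same spans. Shares have exact Clopper-Pearson 95% intervals (SciPy 1.17.1). Log2 ratios used a pseudocount of 1 CPM. TMM factors came from edgeR 4.0.16 and alternative size factors from DESeq2 1.42.0, both under R 4.3.3. A quasi-likelihood fit had no groups to compare, so an exact binomial test per gene was used at 0.05, which measures counting error only. It was run on simulated counts drawn with counting error only. That simulation could not show how the test behaves under further variation between libraries. A chi-square of the counts over 298 genes with 10 or more in each library gave 33.8 per degree of freedom, so the libraries are not 1 library deposited as 2. With 1 library per heart and 1 litter, pup and library preparation cannot be told apart.

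Alternatives covered the denominator, strand column, scaling, pseudocount, detection limit, low-count filter and each library alone. The members, gene lists and tests were chosen with earlier results of these data known. Of 61 Dlk1-Dio3 symbols listed, 51 had a row. Named genes are the members, the 2 genes nearest to each in log2(CPM + 1) over the 2 libraries, the 3 most abundant genes of each imprinted region and the listed cell type markers.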

Additional observations from a re-analysis of the deposited data

Results flagged for a closer look

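The opposite-strand column, which enters the values of the report only where counts of both strands were tried as an alternative, held signal well above what a count of 0 allows, 164593 counts in replicate 1 and 249084 in replicate 2, or 6.62% and 6.67% of the counts on genes. Almost none of it lay at the 5 members. Mir335 had 0 and 1 opposite-strand counts, and Mir483, Mir675, Mir296 and Mir298 had 0 in both hearts. This is not particular to them, since Mir126a, the gene with the most sense counts, had only 5 and 9.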

How the results depend on the processing

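Of 65 recomputed values, 50 stayed within the spread between the pups, the counting interval or 1.5 times the count they belong to. Levels, shares and ratios from a single heart could not leave the spread, since each heart always lies closer to the mean than the SD. They are counted among the 50 and are no check. All 5 genes were detected at limits of 1 and 5 CPM and in either heart alone. Only the limit of 5 CPM could have lowered this number, since detection already required 2 CPM in both hearts. The same 4 genes were called in the same directions with unscaled totals, DESeq2 size factors, a minimum of 10 counts and counts of both strands, with a largest adjusted p between 5.20e-07 and 1.78e-05 in the exact binomial test. The minimum of 10 counts left their unadjusted p-values unchanged, and counts of both strands left their counts nearly unchanged. Those settings were therefore weak checks of the calls. The choice of denominator moved the levels. Scaled to 1000000 reads of the whole table they were 35215 for Mir335, 817 for Mir483, 27.5 for Mir675, 647 for Mir296 and 823 for Mir298, and the summed share was 3.75%. With counts of both strands Mir335 came to 70796 CPM, Mir675 to 55.4 CPM and the summed share to 7.55%. With Mir126a taken out of the total, Mir335 came to 84901 CPM, Mir483 to 1972, Mir675 to 66.4 and Mir298 to 1987. The log2 ratio of Mir335 between the hearts was 0.0919 with TMM-scaled totals and 0.0993 with DESeq2 size factors. Its log2 ratio over Mir483 was 5.26 to 5.61 in single hearts. No paired analysis was possible because there was 1 group. For Mir675, depth limits what can be seen.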

Other observations

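Mir296 and Mir298 were compared with other neighbouring miRNA genes, a comparison added after their opposite calls were seen. Among genes that averaged at least 50 CPM, 36 pairs of next neighbours lay on 1 strand with at most 1000 bases between them. The log2 ratios between the hearts differed within such a pair by a median of 0.0979, with a range of 0.00364 to 0.687. The difference for Mir296 and Mir298 was 0.438, and 1 pair, Mir134 and Mir485, had a larger one. In 2 of the 36 pairs 1 gene was called higher and the other lower, Mir296 with Mir298 and Mir20a with Mir92-1. Neighbouring pairs share genes and libraries, so this is a description of these 2 libraries, and whether the balance of Mir296 and Mir298 varies between litters was not tested.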
